A study of Pan troglodytes with 8 samples.

Results

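Gene desert regions are stretches of accessible chromatin that the deposited annotation places far from their closest gene. They were taken here as the regions of the deposited count table that carried a chimpanzee (panTro6) identifier and lay more than 200 kb from their closest gene. The rule used position alone and no measured value. It selected 4289 of 211348 regions (2.03%), together 3.82 Mb of sequence, set against 203865 regions at 200 kb or less and 3194 without a distance. Of the 4289, 3927 (91.6%) passed the filter on low counts and could be tested, and 362 were too weak.

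The regions were counted in ATAC-seq libraries, which report where a transposase can cut open chromatin, from cells sorted out of chimpanzee cerebral organoids. All organoids came from the single induced pluripotent stem cell line SandraA, were seeded at 9000 cells, and were collected at week 8, give or take 3 days. There were 4 sorted populations of 2 libraries each: neurons positive for BCL11B (N), basal intermediate progenitor cells (bIP), basal radial glia (bRG) and apical radial glia (aRG). No treatment or engineered allele is named in the labels, which do not say whether libraries 1 and 2 came from separate cultures. The p-values therefore measure the spread between these 8 libraries, which may be technical.

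The libraries held between 24913928 and 34845193 counts. Marker genes were summed over the regions that had the marker as closest gene, at no more than 50 kb. The radial glia markers SOX2, PAX6 and HES1 were lowest in N and highest in aRG and bRG. Of 5 intermediate progenitor markers, 4 were highest in bIP (EOMES, NHLH1, NEUROD4 and PPP1R17), while NEUROG2, with 1 region, averaged 2.99 CPM (counts scaled to library size) in bIP and 7.37 in bRG. NHLH1 averaged 70.3 CPM in N, 138 in bIP, 44.2 in bRG and 44.1 in aRG, and PPP1R17 was nearly flat, at 67.1, 80.1, 67.5 and 71.5. Of 7 neuronal genes, 4 were highest in N, such as NEUROD2 with 149 CPM in N, 114 in bIP, 22.3 in bRG and 22.1 in aRG, and 3 were highest in bIP (TBR1, NEUROD6 and BCL11B). BCL11B, the gene named in the N label, did not follow it: its sums averaged 48.2 CPM in N and 64.8 in aRG. Of 5 basal radial glia markers, TNC (35 CPM in bRG, 32.5 in aRG) and FAM107A (38.9 and 38.7) were highest in bRG, HOPX (89.8 and 98.9) and PTPRZ1 (91.9 and 101) in aRG, and LIFR, with 1 region, in N (8.69 CPM in N, 1.3 in bRG, 0.737 in aRG). Between libraries of different populations, bRG and aRG correlated at r = 0.957 to 0.977 over the gene desert regions, against 0.965 and 0.966 within each of these populations. Of 19 markers of 6 other cell types (inhibitory neurons, choroid plexus and hem, mesenchyme, endothelium, microglia and pluripotent cells), 17 had regions, and PECAM1 and AIF1 had none. Their summed levels were 212 and 205 CPM in N, 269 and 283 CPM in bIP, 372 and 354 CPM in bRG, and 450 and 394 CPM in aRG, and their part in the results below was not tested.

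In cortical development, radial glia act as stem cells: apical ones divide at the ventricular surface, basal ones away from it, and both can give rise to intermediate progenitors and neurons. Genes that direct this sequence are often controlled by enhancers, short stretches bound by transcription factors that can act over long distances by folding of the chromatin. Large gene-poor stretches beside developmental and adhesion genes are known to hold many such enhancers. Accessibility marks where such an element could be bound, but does not say which gene it acts on.

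The name needs 1 qualification from the data. The distances pointed to a single position for each closest gene in 98.8% of 185264 regions checked, so they are read here as distances to a gene start and not to the nearest gene edge. The labels and file headers do not name the annotation behind them. A region inside a very long gene, such as AUTS2, CDH13 or FHIT, can therefore count as a gene desert region, and gene ends were not available to separate these. These single positions were found with the human hg38 identifiers, whereas the positions printed below are chimpanzee panTro6. A distance beside a chimpanzee position is thus not known to be the chimpanzee distance.

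The regions lay a median of 249 kb and at most 619.5 kb from the closest gene start, and 104 of them lay over 500 kb away. Just inside the limit were regions near AC092969.1 (200013 bp), LRMDA (200017 bp) and CTNNB1 (200059 bp), and just outside it regions near MIR1263 (199985 bp), RNU6-281P (199994 bp) and AL450307.1 (199999 bp). Few closest genes had a symbol that matched a protein-coding name: 115 of 731, which accounted for 719 regions (16.8%), against 28.4% of the nearer regions. The rest were non-coding genes, pseudogenes or names without a match. A protein-coding gene listed under another symbol would be missed here, and in the nearest protein-coding starts and intervals below. Measured to the nearest protein-coding start, the median distance was 471 kb and the largest was 2904 kb. By human chromosome, most regions were on 6 (567), 3 (488) and 7 (374), and none were on 19, 21 or 22. No region of the whole table was on X or Y. A gorilla identifier was missing for 41 of the gene desert regions (0.956%) and for 4.5% of the nearer ones.

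The regions were of ordinary width but weak. Their median width was 840 bp, against 860 bp for nearer regions and 1522 bp for regions overlapping a gene start. Their median level was 1.2 CPM, or 1.61 CPM per kb of region, against 2.14 CPM per kb for nearer regions and 11.6 CPM per kb at gene starts. A typical gene desert region collected 271 counts over all 8 libraries. The spread between the 2 libraries of a population was larger at these low counts, with a median coefficient of variation of 21%, against 18% for nearer regions and 7.2% at gene starts.

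Neurons and apical radial glia differed at most gene desert regions, and more of the differences were gains in N. By edgeR's quasi-likelihood test with Benjamini-Hochberg adjustment over all 198227 regions tested, 2954 of the 3927 (75.2%) were called at an adjusted p under 0.05, where 69% of all regions were called. Of these 1749 were higher and 1205 lower in N. The median log2 fold change was 0.59, with quartiles of -1.45 and 2.55, against a median of 0.13 over all regions. Calls of over 4-fold numbered 1233 higher and 748 lower in N, which is 31.4% and 19% of the gene desert regions, against 24.6% and 16.4% of all regions. Calls of over 16-fold numbered 289 higher and 112 lower in N (7.36% and 2.85%, against 5.12% and 2.48% of all regions). Whether more cells were open at a region or each cell was cut more often cannot be told apart in sorted bulk samples.

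The excess of gains rested on how libraries were scaled. With DESeq2 size factors, or with factors taken from gene-start regions alone, the gene desert median still lay 0.46 above the median of all regions. Gene-start factors moved the median of all regions to 0.41. With loess offsets, which correct trends along the signal level, the gene desert median was 0.13 and that of all regions 0.12, with 1442 regions higher and 1371 lower in N. The share of each library's counts that fell at gene starts was lower in N (33.6% and 33.7%) than in aRG (37.3% and 38.3%), and the part of this in the shift was not tested. The share in gene desert regions was 1.17% and 1.29% in N, 1.02% and 1.03% in bIP, 1.03% and 1.05% in bRG, and 1.06% and 1.01% in aRG. The N libraries were thus above the other 6.

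**Figure D1:**
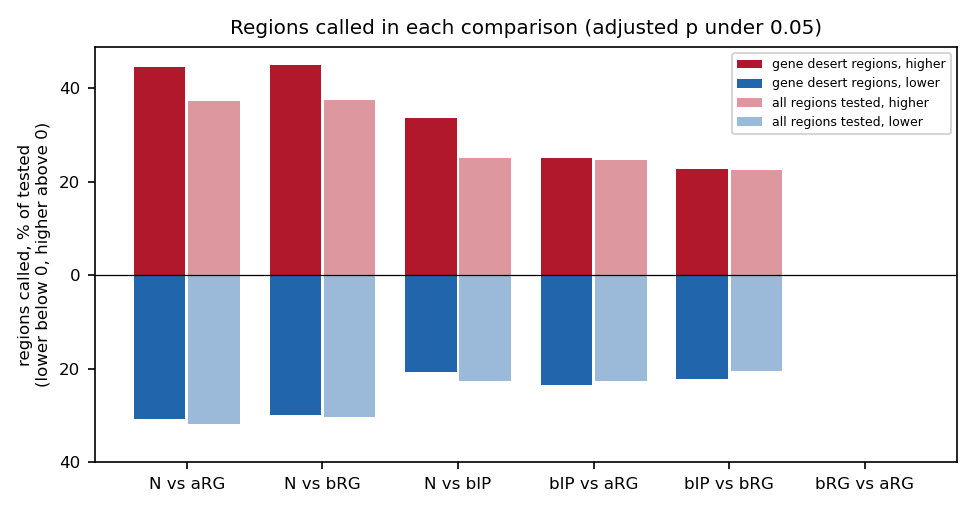
Share of regions called in each comparison, in percent of those tested, with regions higher in the first-named population above 0 and regions lower in it below 0, for gene desert regions (dark) and all regions tested (pale). For N against aRG, 44.5% of gene desert regions were higher and 30.7% lower in N, against 37.2% and 31.7% of all regions, and no region was called between bRG and aRG.

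The 5 regions that gained most in N had at most 0.796 CPM in any aRG library, a low level that ranking against aRG favours. In bRG they had between 0.293 and 1.93 CPM, where the median gene desert region had 0.704 and 0.78 CPM. The largest gain, ranked among called regions of at least 1 CPM with 1 region per closest gene, was at chr16:68876284-68876941. It lies 201 kb from AC009142.1 and 570 kb from the start of CDH13, a cadherin that is anchored in the membrane by lipid. It had 10.2 and 8.31 CPM in N, 1.67 and 0.651 CPM in bIP, 0.293 and 0.373 CPM in bRG, and 0.156 and 0.0419 CPM in aRG (4 and 1 counts). The N libraries stood far above the rest, with a log2 fold change against aRG of 6.46 ± 0.57 (SE) and an adjusted p of 1.2e-06 by edgeR. At chr9:55338251-55339204, 318 kb from PIGUP1 and 372 kb from the start of the cation channel gene TRPM3, accessibility was 13.6 and 16.3 CPM in N, 1.96 and 1.49 CPM in bIP, 1.14 and 0.713 CPM in bRG, and 0.195 and 0.251 CPM in aRG. The 4 populations did not overlap there (log2 fold change of N against aRG 6.04 ± 0.41, adjusted p 2e-07 by edgeR). Their means were in the order N, bIP, bRG, aRG, but bIP against bRG (adjusted p 0.051 by edgeR) and bRG against aRG were not called. Another gain, at chr14:27200976-27202246 and 294 kb from RPL10L, a ribosomal protein gene best known from testis, had 25.1 and 29.1 CPM in N, 4.02 and 2.6 CPM in bIP, 1.5 and 1.93 CPM in bRG, and 0.274 and 0.796 CPM in aRG. The remaining regions of the 5 largest gains were at chr18:34581277-34582278, 495 kb from AC068688.1 in the interval between CELF4, which encodes a neuronal RNA-binding protein, and PIK3C3, and at chr7:66454329-66455035, 578 kb from AC073873.1 in the AUTS2 interval. Their log2 fold changes were 5.84 ± 0.56 and 5.67 ± 0.53.

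At the 5 largest losses in N the radial glia libraries held between 8.89 and 68.1 CPM. At chr3:60636899-60637957, 213 kb from AC104164.2 and 848 kb from the start of FHIT, a diadenosine hydrolase gene that spans a fragile site, the N libraries had 0.31 and 0.666 CPM. The bIP libraries had 2.9 and 6.2 CPM, bRG 31.8 and 21.6 CPM, and aRG 34.3 and 22.8 CPM. Both radial glia populations were high, bIP lay between and N was almost closed (log2 fold change of N against aRG -5.90 ± 0.44, adjusted p 4.3e-07 by edgeR). A region at chr13:53385049-53386493, 228 kb from RPS10P21 and 274 kb from the start of DACH1, a nuclear regulator of transcription, had 1.36 and 1.49 CPM in N, 6.89 and 17.2 CPM in bIP, 53.8 and 53.2 CPM in bRG, and 68.1 and 63 CPM in aRG. N was the lowest there and bIP again lay between. The region at chr6:88279108-88280037, 200 kb from MAP3K7, the gene of the kinase TAK1, had 0.526 and 0.431 CPM in N, 2.54 and 3.98 CPM in bIP, 15.8 and 17.1 CPM in bRG, and 22.4 and 21.3 CPM in aRG. At chr5:86165432-86166737, 280 kb from FBXL17, the values were 0.805 and 1.25 CPM in N, 5.4 and 12.1 CPM in bIP, 41.8 and 41 CPM in bRG, and 46.4 and 42.4 CPM in aRG. The interval of the FBXL17 region ends at EFNA5, which encodes an ephrin, a guidance ligand of growing axons. The fifth, at chr11:79787529-79788458 and 207 kb from LDHAL6DP, lay between CCDC90B and the synaptic scaffold gene DLG2 and had a log2 fold change of -5.82 ± 0.44. In these 5 regions every bIP library lay above both N libraries and below all 4 radial glia libraries.

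**Figure D2:**
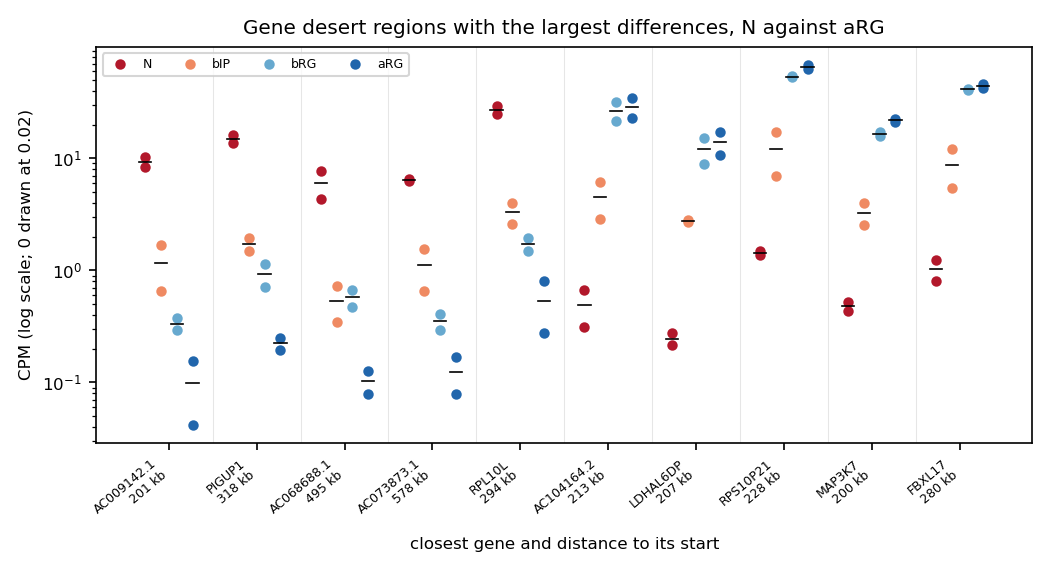
Accessibility in CPM (log scale) of the 5 gene desert regions with the largest gain and the 5 with the largest loss in N against aRG, named by closest gene and distance, with 1 point per library and a line at the mean of each population. In the 5 gains the N points lie above all others, and in the 5 losses below all others.

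Calls between N and aRG became more frequent with distance from the gene start. From gene starts outward, regions at 0, at 1 to 10 kb, 10 to 50 kb, 50 to 200 kb, 200 to 500 kb and over 500 kb were called between N and aRG in 52.6%, 67%, 70.6%, 73.8%, 75.2% and 76.3% of those tested. The median log2 fold change over the same classes was -0.25, 0.14, 0.31, 0.53, 0.53 and 1.90. For bIP against aRG no such rise was seen in the last classes, with 49.6%, 48.6% and 43.3% called. The step into the gene desert classes was thus small, and regions at 200 to 500 kb were much like those at 50 to 200 kb. The share of tested regions whose highest mean was in N followed the same order, at 22.9%, 39.3%, 42%, 45.9%, 47.4% and 70.1%. The median level over these classes was 19.4, 1.74, 1.5, 1.37, 1.2 and 1.38 CPM. In bands starting at 0.3, 0.5, 1, 2, 4 and 8 CPM, gene desert regions had median log2 fold changes of 0.93, 1.12, 0.80, 0.18, 0.16 and -1.68. Nearer regions away from gene starts had 0.67, 0.82, 0.45, 0.24, -0.01 and -0.75. The part of signal level in the trend with distance was not tested. The farthest class was small and clustered: of 97 regions tested over 500 kb, 60 were higher and 14 lower in N. Of these 97, 39 lay in the single interval between the starts of AUTS2 and GALNT17. Without that interval 32 were higher and 12 lower of 58, with a median of 1.57. With loess offsets the 97 gave 53 higher and 17 lower, and the 58 gave 25 and 15.

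**Figure D3:**
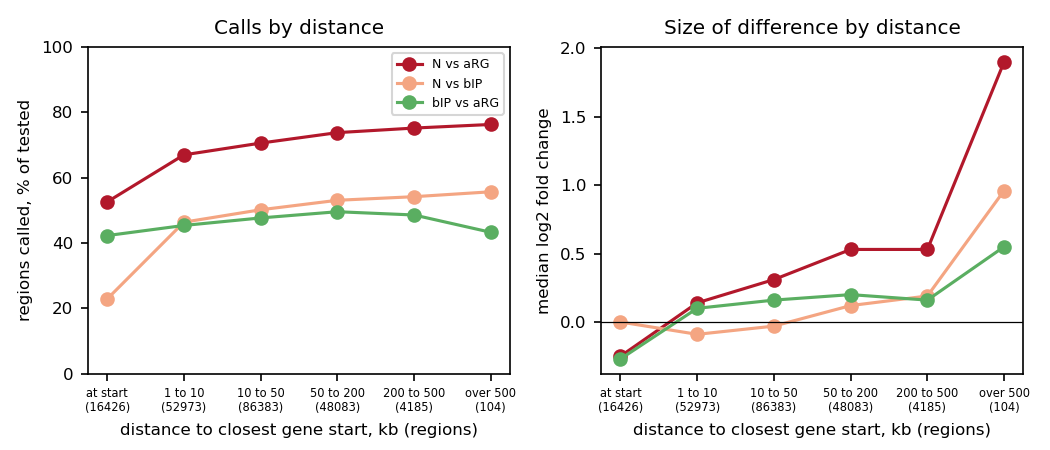
Percent of tested regions called (left) and median log2 fold change (right) by distance to the closest gene start in kb, with the number of regions in each class in brackets, for N against aRG, N against bIP and bIP against aRG. For N against aRG the share called runs over the classes from 52.6% at gene starts to 76.3% over 500 kb.

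The farthest regions of all lay between the starts of AUTS2, a gene linked to neurodevelopmental disorders whose protein acts with Polycomb complexes, and GALNT17, a glycosyltransferase gene. Whether they lie inside AUTS2 was not checked, since gene ends were not available. A region at chr7:66411756-66413130, 618 kb from AC073873.1 and 620 kb from the AUTS2 start, had 29.7 and 30.2 CPM in N, 18.2 and 13.4 CPM in bIP, 2.58 and 2.51 CPM in bRG, and 1.33 and 2.05 CPM in aRG. It was high in N and bIP and low in both radial glia populations (log2 fold change of N against aRG 4.15 ± 0.26, adjusted p 1.2e-07 by edgeR). Right beside it, the region at chr7:66411422-66411690, the farthest in the set, stayed between 0.293 and 0.619 CPM in all libraries, with a log2 fold change of N against aRG of 0.33 ± 0.51 and an adjusted p of 0.58 by edgeR. At chr7:66407358-66408400, 615 kb from the AUTS2 start, N had 26.1 and 29.4 CPM, bIP 11.7 and 6.66 CPM, bRG 4.75 and 2.14 CPM, and aRG 3.16 and 2.3 CPM. These 3 were named for being the farthest, a choice made after the values were seen.

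N also differed from bRG, much as it did from aRG. The test called 2937 gene desert regions (74.8%, against 67.9% of all regions), 1763 higher and 1174 lower in N, with a median log2 fold change of 0.64. These comparisons share the N libraries, so they are not separate evidence. Under loess offsets 1478 were higher and 1332 lower in N.

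Fewer gene desert regions were called between N and intermediate progenitors. Between N and bIP 2128 gene desert regions were called (54.2%, against 47.6% of all regions), 1317 higher and 811 lower in N, with a median log2 fold change of 0.21 against -0.01 over all regions. With loess offsets the split was 1132 higher and 968 lower and the median turned to -0.04, against -0.03 over all regions. Without the second bIP library 867 were higher and 616 lower, with a median of 0.11. Calls of over 16-fold numbered 2 higher and 4 lower in N (0.0509% and 0.102%), as rare as over all regions (0.053% and 0.0762%). The region at chr11:42290201-42290905, 294 kb from LINC02740 in the interval that starts at LRRC4C, which encodes a netrin-G ligand of synapses, had 6.38 and 9.01 CPM in N and 0.399 and 0.536 CPM in bIP. Both radial glia populations were as low as bIP, between 0.156 and 0.528 CPM, so that only the N libraries were high (log2 fold change of N against bIP 4.03 ± 0.39, adjusted p 2.7e-05 by edgeR). The region at chr13:63649985-63650977, 414 kb from GYG1P2 in the interval of the synaptic organiser SLITRK1, had 4.24 and 6.58 CPM in N, against 0.399 and 0.268 CPM in bIP. At chr10:62036699-62037858, 204 kb from AC022017.1 and 642 kb from the start of LRRTM3, another synaptic adhesion gene, N had 5.82 and 7.72 CPM and bIP 0.471 and 0.459 CPM. The region near RPS14P7, at chr4:159045724-159046588 in the interval that ends at FSTL5, showed the widest spread within N, at 3.59 and 10.2 CPM, against 0.326 and 0.651 CPM in bIP. A second region near PIGUP1, at chr9:55414568-55415720 and 296 kb from TRPM3, had 12.7 and 17.3 CPM in N and 1.09 and 1.07 CPM in bIP. In these last 4 regions the radial glia libraries lay between 0.168 and 1.17 CPM.

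The regions that fell most in N against bIP took several forms. One was open in bIP only: at chr7:15428378-15429040, 224 kb from AGMO, an ether lipid monooxygenase gene, N had 0.248 and 0.235 CPM, bIP 4.71 and 4.86 CPM, bRG 0.411 and 0.475 CPM, and aRG 0.547 and 0.503 CPM. The log2 fold change was -4.28 ± 0.37 against bIP (adjusted p 1.6e-05 by edgeR). At chr8:115818591-115819444, 288 kb from RPS10P16 and 292 kb from the start of MED30, a subunit gene of the Mediator complex, N had 0.774 and 0.666 CPM, bIP 10.5 and 11.9 CPM, bRG 1.73 and 2.61 CPM, and aRG 3.52 and 2.6 CPM. Here bIP was highest and the radial glia stood between it and N. A region at chr3:103325358-103326342, 231 kb from ALCAM, a cell adhesion molecule of the immunoglobulin family, was open in all but N: 0.155 and 0.392 CPM in N, 3.15 and 5.67 CPM in bIP, 2.35 and 4.07 CPM in bRG, and 3.28 and 3.98 CPM in aRG. At chr11:99475879-99477484, 211 kb from MIR4693, N had 0.526 and 0.47 CPM, bIP 6.85 and 12.6 CPM, bRG 3.81 and 4.65 CPM, and aRG 7.23 and 4.65 CPM. The region at chr11:38657039-38658337 in the long interval between RAG2 and LRRC4C fell stepwise, with 0.681 and 0.784 CPM in N, 8.59 and 12.3 CPM in bIP, 21.1 and 15.6 CPM in bRG, and 26.1 and 17.3 CPM in aRG.

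Between intermediate progenitors and apical radial glia, gains and losses at gene desert regions were close in number. Between bIP and aRG 1903 were called (48.5%, against 47.2% of all regions), 984 higher and 919 lower in bIP. With scaling factors from gene-start regions the split was 1166 higher and 734 lower, and with loess offsets 888 higher and 997 lower, so neither direction prevailed under all scalings. Against bRG 1762 were called (44.9%, against 42.9% of all regions), 891 higher and 871 lower in bIP, which is 22.7% and 22.2%, against 22.4% and 20.4% of all regions. Loess offsets turned this split to 830 higher and 938 lower, and without the first bIP library it was 666 and 556. Among the 2954 regions called between N and aRG, the bIP mean lay between the other 2 means in 81.4%, against 80.6% for all regions called.

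Gains in bIP were of regions that stayed open in N and of regions that did not. At chr2B:28180161-28181234, 387 kb from AC068287.1 and 536 kb from the start of LRP1B, a large receptor of the LDL receptor family, N had 27.1 and 30.7 CPM and bIP 20.9 and 13.6 CPM. It had 2.08 and 1.93 CPM in bRG and 0.664 and 1.17 CPM in aRG, a log2 fold change of bIP against aRG of 4.23 ± 0.31 (adjusted p 3.4e-06 by edgeR). The region at chr4:134600724-134601434, 224 kb from AC093875.1 in the interval that ends at the protocadherin gene PCDH18, likewise had 9.76 and 9.76 CPM in N, 6.78 and 5.7 CPM in bIP, 0.704 and 1.05 CPM in bRG, and 0.234 and 0.419 CPM in aRG. In contrast, at chr10:101108982-101109863, 264 kb from RNU6-463P between the sorting receptor genes SORCS3 and SORCS1, bIP stood far above the rest. It had 1.95 and 1.33 CPM in N, 7.39 and 15.7 CPM in bIP, 0.352 and 0.916 CPM in bRG, and 0.508 and 0.586 CPM in aRG. The log2 fold change there was 4.39 ± 0.50 for bIP against aRG and -2.80 ± 0.44 for N against bIP (adjusted p 3.6e-05 and 0.00032 by edgeR). N stayed above both radial glia populations at this region. Its log2 fold changes were 1.59 ± 0.52 against aRG and 1.40 ± 0.49 against bRG (adjusted p 0.015 and 0.023 by edgeR). The AUTS2 interval gave the other 2 gains. One, at chr7:66754626-66755622, had 7.31 and 6.35 CPM in N, 8.05 and 9 CPM in bIP, 0.822 and 0.577 CPM in bRG, and 0.313 and 0.628 CPM in aRG.

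Losses in bIP were shared with N at the regions named. The region at chr6:21754285-21755218, 258 kb from MIR548A1, lies between RNF144B and ID4, a gene of an inhibitory helix-loop-helix factor of neural progenitors. It had 0.65 and 0.313 CPM in N, 0.616 and 1.88 CPM in bIP, 10.7 and 9.33 CPM in bRG, and 14.3 and 12.3 CPM in aRG (log2 fold change of bIP against aRG -3.42 ± 0.43, adjusted p 6.4e-05 by edgeR). At chr5:25725276-25726141, 304 kb from the start of MEF2C, a transcription factor of maturing neurons, N had 0.403 and 0.235 CPM, bIP 0.761 and 0.766 CPM, bRG 6.81 and 3.63 CPM, and aRG 9.96 and 4.31 CPM. The aRG libraries were far apart here, and N was as low as bIP. The regions near AL355592.1 on the side of BRINP1, near RNU6-478P on the side of NRG3, a neuregulin gene, and near FAM71C beside ANKS1B had log2 fold changes of -3.36 ± 0.35, -3.27 ± 0.44 and -3.22 ± 0.56.

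**Figure D4:**
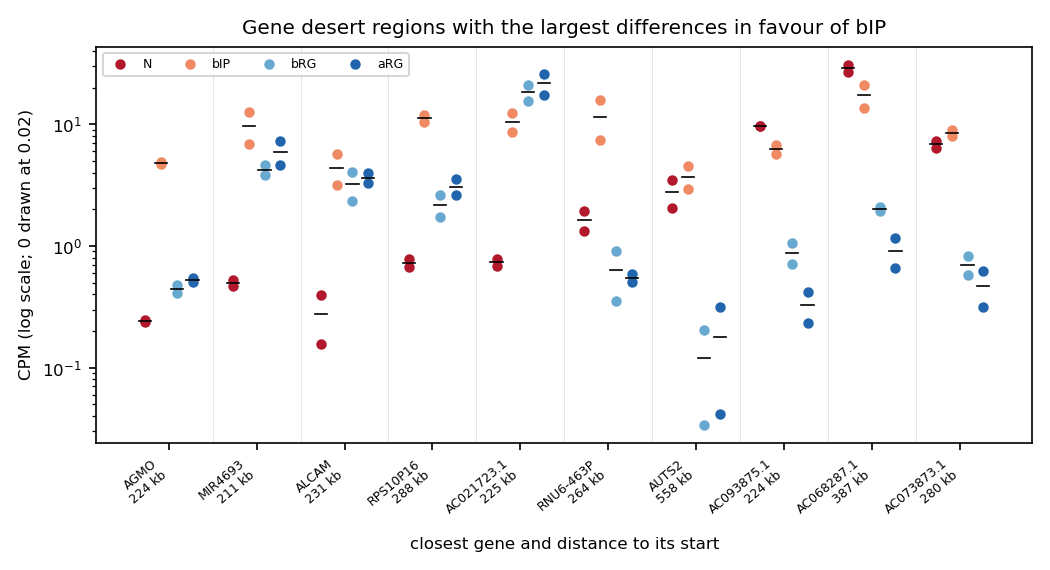
Accessibility in CPM (log scale) of the 5 gene desert regions that fell most in N against bIP and the 5 that rose most in bIP against aRG, with 1 point per library and a line at the mean of each population. The AGMO region is high in bIP alone, and the RNU6-463P region is highest in bIP with N next. The AC093875.1 and AC068287.1 regions are high in both N and bIP.

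No gene desert region was called between basal and apical radial glia, where 0% of all regions were called. At an unadjusted p under 0.05 edgeR's quasi-likelihood test gave 118 of 3927, against 5232 of all 198227 regions. DESeq2 called 0 gene desert regions, with 60 at an unadjusted p under 0.05. The quartiles of the log2 fold change were -0.22 and 0.28, against -1.45 and 2.55 for N against aRG. A p above the threshold does not show that the populations are alike.

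Of the 5 most accessible gene desert regions per length, all but the highest overlapped a peak of every population. The exception overlapped peaks of all populations but N. The highest, at chr2B:91603611-91604731 and 230 kb from AC008171.1, lies between the polarity gene PARD3B and NRP2, a receptor for semaphorins. It had 13.4 and 5.8 CPM in N, 44 and 41.8 CPM in bIP, 58.2 and 56.5 CPM in bRG, and 67.4 and 57.6 CPM in aRG, a mean of 38.4 CPM per kb. N was lowest there (log2 fold change against aRG -2.69 ± 0.26, adjusted p 2.3e-06 by edgeR). The next, at chr6:125606416-125608425 and 286 kb from the start of PTPRK, a receptor tyrosine phosphatase, overlapped a peak of every population and had 45.6 and 34.1 CPM in N, 65.6 and 67 CPM in bIP, 60.8 and 71.2 CPM in bRG, and 83.5 and 80.9 CPM in aRG. A region at chr13:40957659-40958826, 261 kb from DIAPH3-AS1, was nearly even, with 36.9 and 34 CPM in N, 23.8 and 23.1 CPM in bIP, 30.4 and 30.8 CPM in bRG, and 32.4 and 33.5 CPM in aRG. Its log2 fold change was 0.11 ± 0.11 for N against aRG and -0.49 ± 0.11 for bIP against aRG (adjusted p 0.39 and 0.0026 by edgeR). The other 2 of the 5, near AC079052.1 and RPL7P45, were lower in N than aRG by log2 fold changes of -0.81 ± 0.20 and -2.66 ± 0.21.

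The 4289 regions fell into 335 intervals between neighbouring protein-coding gene starts, 145 of which held 10 or more and together 3463 regions. The 10 fullest intervals held 735 regions (17.1%). Most intervals held gains and losses side by side. Of the 145, 144 had at least 5 calls between N and aRG, and among these 28 had at least 80% of their calls higher in N, 7 at least 80% lower, and 109 neither. With loess offsets the 2 counts were closer, at 18 mostly higher and 14 mostly lower, and with gene-start factors they were 40 and 3. Of the 28, 18 kept this lean with loess offsets and all 28 with gene-start factors, while of the 7, 6 and 3 did. In the fullest, AUTS2 to GALNT17 with 164 regions, 85 were higher and 40 lower in N. CELF4 to PIK3C3 held 81, of which 37 were higher and 27 lower.

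**Figure D5:**
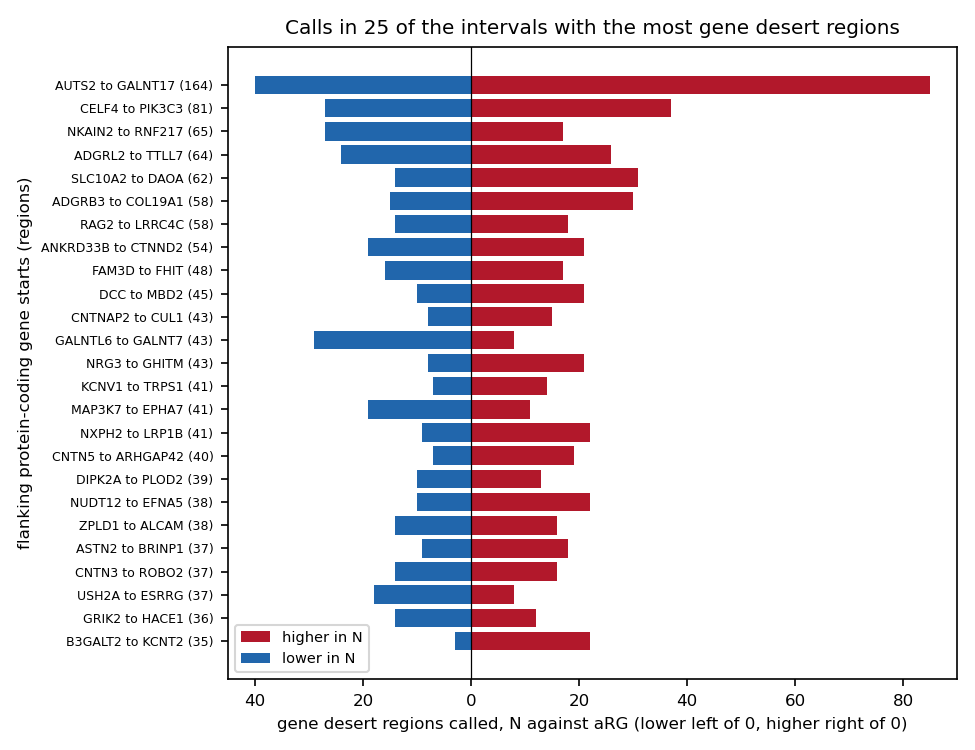
Number of gene desert regions called higher (right of 0) and lower (left of 0) in N against aRG in 25 of the intervals that held the most of them, named by the flanking protein-coding gene starts with the number of regions in brackets. AUTS2 to GALNT17 had 85 higher and 40 lower, and GALNTL6 to GALNT7 had 8 higher and 29 lower.

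Some intervals leaned strongly to N. The following were picked for their lean after the values were seen, and their counts are descriptions. Between B3GALT2 and KCNT2, a sodium-activated potassium channel gene, 22 of 32 tested regions were higher and 3 lower in N than in aRG. Summed over this interval, accessibility was 120 and 166 CPM in N, 34.6 and 30.9 CPM in bIP, 26.1 and 28.1 CPM in bRG, and 27.2 and 23.2 CPM in aRG. The interval from SPRY2, a growth factor signalling inhibitor, to SLITRK1 had 20 higher and 4 lower of 27 and sums of 64.7 and 89.6 CPM in N, 24.7 and 21.6 CPM in bIP, 19.9 and 22.1 CPM in bRG, and 21.3 and 19.1 CPM in aRG. Between FANCL and BCL11A, a transcription factor of cortical neurons, 11 of 15 were higher and 1 lower, and sums were 70.9 and 83.3 CPM in N, 28.4 and 21.7 CPM in bIP, 17.7 and 18.7 CPM in bRG, and 17.3 and 17.3 CPM in aRG. In the interval of the axon repellents SEMA3E and SEMA3A, 9 of 12 were higher and 1 lower in N. Between SLC26A5 and RELN, which encodes the secreted layering signal reelin, 7 of 11 were higher and 1 lower, and there bIP (62.8 and 52.1 CPM) was close to N (73.6 and 48.9 CPM), with aRG at 28.5 and 22.2 CPM.

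How many intervals leaned to radial glia depended on the scaling, as given above. In the interval between PLCB1 and PLCB4, both phospholipase C genes, 1 of 22 tested regions was higher and 14 were lower in N than in aRG, and sums were 15.7 and 20.2 CPM in N, 30.9 and 42.9 CPM in bIP, 111 and 95 CPM in bRG, and 131 and 105 CPM in aRG. Between the forkhead gene FOXC1 and GMDS, a gene of GDP-fucose synthesis, 0 of 16 were higher and 13 lower, with sums of 30.2 and 36.9 CPM in N, 65.9 and 78.9 CPM in bIP, 129 and 123 CPM in bRG, and 158 and 134 CPM in aRG. No N library overlapped an aRG library in either. From MITF to FOXP1, a forkhead transcription factor of cortex and striatum, 2 of 15 were higher and 12 lower. Regions beside SLIT2, a guidance repellent, SOX14 and SIX3, transcription factors of the early brain, were also mostly lower in N among those called (0 and 6 calls, 1 and 7, and 1 and 4, higher and lower). With gene-start factors the SLIT2, SOX14 and SIX3 intervals had 0 and 4, 2 and 6, and 2 and 4 calls. MITF to FOXP1 had 3 and 11 with these factors. None of these intervals was then counted as mostly lower. Those that were, PLCB1 to PLCB4, FOXC1 to GMDS and ZWINT to IPMK, had 3 and 14, 0 and 12, and 1 and 6. Between GALNTL6 and GALNT7, an interval not counted as mostly lower, 8 of 42 were higher and 29 lower.

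Summed per closest gene, gene desert regions gave 709 testable sums, and differences were again common. Between N and aRG 515 were called by edgeR (72.6%, against 62.7% of all sums), 313 higher and 202 lower in N. Between N and bIP 405 were called (57.1%, against 40.4%), 283 higher and 122 lower in N. Between bIP and aRG 389 were called (54.9%, against 48.1%), 168 higher and 221 lower in bIP. Between bIP and bRG 360 were called (50.8%, against 40.3%), 167 higher and 193 lower in bIP. Between bRG and aRG 0 were called (0% of all sums). There 14 of the 709 had an unadjusted p under 0.05 by edgeR, against 679 of 40638 sums of nearer regions. Among sums of at least 5 regions, the largest gain in N was for the 6 regions near BCHE, the butyrylcholinesterase gene, on the side of SLITRK3. They had 43.7 and 47 CPM in N, 12 and 8 CPM in bIP, 3.23 and 3.83 CPM in bRG, and 2.5 and 2.6 CPM in aRG (log2 fold change of N against aRG 4.15 ± 0.24, adjusted p 2.9e-06 by edgeR). The 6 regions near HINT2P1, in the interval of the neural adhesion gene CNTN4, had 43.4 and 38.6 CPM in N, 22.9 and 17.2 CPM in bIP, 3.81 and 4.75 CPM in bRG, and 2.31 and 2.97 CPM in aRG. The 7 near AC113383.1, between EDIL3 and COX7C, had 56.7 and 62.8 CPM in N, 42.2 and 31.5 CPM in bIP, 5.31 and 5.4 CPM in bRG, and 5 and 5.49 CPM in aRG. The gains of HINT2P1 and AC113383.1 were thus large in bIP too, with log2 fold changes against aRG of 2.92 ± 0.22 and 2.81 ± 0.17.

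Among losses in N, the 5 regions near MICOS10P3 had 5.82 and 2.94 CPM in N, 15 and 15.3 CPM in bIP, 50.7 and 42.3 CPM in bRG, and 57.1 and 42.3 CPM in aRG, a log2 fold change of -3.48 ± 0.28 (adjusted p 8.7e-06 by edgeR). The 8 near LINC02667, in the interval of the proliferation marker MKI67, had 3.69 and 3.29 CPM in N, 9.93 and 20.2 CPM in bIP, 30.7 and 36.1 CPM in bRG, and 28.9 and 32.8 CPM in aRG. The 9 gene desert regions closest to ROBO2, a receptor for the SLIT guidance proteins, were low in both N and bIP, with 4.52 and 7.25 CPM in N, 7 and 9.3 CPM in bIP, 30.7 and 21.5 CPM in bRG, and 35.6 and 22.2 CPM in aRG. A sum that was highest in bIP was that of 8 regions near MIR548F2, in the interval of the neuregulin receptor gene ERBB4, with 16.3 and 14.2 CPM in N, 23.6 and 23.8 CPM in bIP, 3.73 and 4.58 CPM in bRG, and 5.31 and 3.85 CPM in aRG.

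Far and nearer regions of the same closest gene moved together only loosely. Over all 709 genes, the log2 fold changes of N against aRG of the 2 sums correlated with r = 0.216 and had the same sign in 59.5%. Of the 709 genes, 389 had both sums called between N and aRG, 242 in the same direction and 147 in opposite directions. Near MICOS10P3 the far sum fell by 3.48 on the log2 scale and the nearer sum rose by 0.43 (adjusted p 0.029 by edgeR). Near AC073551.1, between KCNJ3 and the nuclear receptor gene NR4A2, 5 far regions rose in N with a log2 fold change of 2.53 ± 0.15 while the nearer sum fell, with -1.61. Near RNU105B the 12 far regions had a log2 fold change of -2.95 ± 0.23, and the 24 nearer ones -0.11, with an adjusted p of 0.58. For SPATA2P1, in the interval that ends at the protocadherin gene PCDH17, both sums rose, with 3.46 for the far and 3.50 for the nearer regions. The 85 far regions of AUTS2 summed to 413 and 455 CPM in N, 377 and 361 CPM in bIP, 359 and 327 CPM in bRG, and 388 and 355 CPM in aRG, with a log2 fold change of N against aRG of 0.22 ± 0.11 and an adjusted p of 0.1 by edgeR (called, as higher in N, with gene-start factors alone). Its 42 nearer regions had -0.96 (adjusted p 0.00013).

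Gene groups were read by the nearest protein-coding start, which need not be the gene that a region acts on. Around adhesion and guidance genes, 640 gene desert regions had 44 genes of the list of 82 as nearest start. Of 579 tested between N and aRG, 286 were higher and 156 lower in N, with a median log2 fold change of 1.05 against 0.59 over all gene desert regions and 76.3% called against 75.2%. Around CNTN5, a neuronal contactin, 16 were higher and 3 lower of 25 tested, and around DCC, the netrin receptor, 17 and 7 of 35. Around CTNND2, a neuronal catenin, the split was 21 and 19 of 53, and around ADGRL2, a latrophilin, 30 and 24 of 63. Around synapse and channel genes, 105 were higher and 74 lower of 238, with a median of 0.50. The share called, 75.2%, was that of all gene desert regions. There the AMPA receptor gene GRIA1 had 15 higher and 5 lower of 22, NRG3 23 and 9 of 46, and the kainate receptor gene GRIK2 11 and 11 of 25.

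Around transcription factor genes more calls were lower than higher in N. Of 182 tested regions nearest to 25 genes of the list of 120, 54 were higher and 84 lower in N than in aRG, with a median log2 fold change of -0.74 and 75.8% called, against 75.2% of all gene desert regions. Without ESRRG, NPAS3 and FOXP1 the remaining 22 genes held 43 higher and 45 lower. Around ESRRG, an orphan nuclear receptor gene, 3 were higher and 13 lower of 18, with sums of 19.2 and 24.8 CPM in N, 43.7 and 51.3 CPM in bIP, 85.7 and 87 CPM in bRG, and 87.7 and 87.6 CPM in aRG. Around NPAS3, a helix-loop-helix PAS factor of the developing brain, 6 were higher and 14 lower of 27, and around the POU factor gene POU3F2, 6 and 9 of 23. FOXP1 had 2 higher and 12 lower of 15. BHLHE22, with 6 higher and 3 lower of 10, and NR4A2, with 6 and 2 of 8, went the other way. Against bIP, 41 of the 182 were higher and 59 lower in N, and 39 were higher and 66 lower in bIP than in aRG. These are 54.9% and 57.7% called, against 54.2% and 48.5% of all gene desert regions. With gene-start factors the last split was 47 and 52, with a median of -0.05 in place of -0.32. Around radial glia and signalling genes 35 were higher and 15 lower of 76, with 65.8% called, against 75.2% of all gene desert regions. DIAPH3, a formin, held 22 regions, with 15 higher and 1 lower. TRPS1, a zinc finger repressor, held 41, with 14 higher and 7 lower. The lean lay mainly around these genes, since TNC had 3 higher and 3 lower, BMPR1B 2 and 1, and QKI 1 and 3. By closest gene, few gene desert regions have a protein-coding name. There the lists of transcription factors, adhesion, synapse and radial glia had 36, 86, 25 and 7 tested regions. Of these 10, 34, 12 and 2 were higher and 20, 30, 6 and 1 lower in N than in aRG. That is 83.3%, 74.4%, 72% and 42.9% called, against 75.2% of all gene desert regions. The median log2 fold changes were -0.96, 0.32, 1.10 and -0.11, and the 7 radial glia regions were all near BMPR1B. Read by nearest protein-coding start, the lists kept their direction between N and aRG under every scaling tried, except synapse and channel genes, which had 79 higher and 86 lower with loess offsets.

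Deposited peaks, 1 consensus list per population, overlapped between 25.9% and 30.1% of the gene desert regions. By at least 1 bp, N peaks overlapped 30.1% of the 4289 (95% Wilson interval 28.8 to 31.5), bIP peaks 25.9% (24.6 to 27.2), bRG peaks 27.6% (26.3 to 29) and aRG peaks 27.3% (26 to 28.7). For nearer regions the shares were 38.1%, 37.4%, 39.1% and 37.6%. No list overlapped 1885 regions (43.9%, against 35.8% of nearer regions), and all 4 lists overlapped 298 (6.95%, against 17.8%). N peaks alone overlapped 599 (14%, against 11.3%), bIP peaks alone 183 (4.27%, against 4.52%), bRG peaks alone 104 (2.42%, against 2.74%) and aRG peaks alone 114 (2.66%, against 2.09%). The pair of radial glia lists alone overlapped 426 (9.93%, against 9.29%), the N and bIP lists alone 285 (6.64%, against 6.02%), and all lists but N 261 (6.09%, against 6.5%). These intervals cover counting error only, and the lists have no replicates. Regions in no list were weak, with a median of 0.506 CPM. Of 1523 tested, 669 were called higher and 249 lower in N than in aRG. That is 60.3% called, against 75.2% of all gene desert regions tested. Among the 298 in all 4 lists, with a median of 8.1 CPM, 85 were higher and 102 lower (62.8% called). Regions in 1, 2 and 3 lists were called in 87.2%, 91.6% and 81.2%. The lists come from the same populations as the counts, so a region in only some lists is already likely to differ in counts. These shares are descriptions.

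Neighbouring gene desert regions resembled each other most at short range. Across 711 pairs of adjacent regions less than 2 kb apart, the log2 fold changes of N against aRG correlated with r = 0.396, across 1352 pairs at 2 to 10 kb with r = 0.218, across 1122 pairs at 10 to 50 kb with r = 0.183, and across 110 pairs at 50 to 200 kb with r = 0.0621. The pairs share libraries, so r is a description. Among adjacent pairs under 2 kb apart with both members called, 287 had the same direction and 113 opposite ones, and at 10 to 50 kb 396 and 243. Nearer regions away from gene starts gave r = 0.421, 0.258, 0.177 and 0.132 over the same gaps.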

How the data were processed

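Per the file headers, the authors deposited unscaled whole-number read counts per region for 8 libraries, with region identifiers in human, chimpanzee and gorilla and the closest gene with its distance. The 4 deposited consensus peak lists give, per the file headers, a score, a fold enrichment (a ratio) and a -log10 p-value and q-value per peak, of which only peak positions and the -log10 q-value entered this work. The submitters' processing notes name bcl2fastq 2.20.0, MACS2, panTro6 and hg38. Not given in the sources used here are the aligner, the matching of regions between species, and how each consensus list was built from its libraries.

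Of 218080 rows, 6725 without a chimpanzee identifier (all counts 0) and 7 repeats were removed. Starts were raised by 1 for printing, since 56998 region starts equalled peak starts counted from 0. One edgeR 4.0.16 model (filterByExpr, TMM factors, robust quasi-likelihood) was fitted to the counts, a fit of 198227 regions and 8 libraries, with population as the only term (4 residual degrees of freedom, common biological coefficient of variation 0.216). Benjamini-Hochberg adjustment ran over all regions, and calls and the words rose and fell mean an adjusted p under 0.05. Counts summed per closest gene, over 200 kb and at most 200 kb separately, were tested in a second fit of 41347 sums. CPM use library totals scaled by TMM, and ± is a standard error for log2 fold changes. The scripts were tested on simulated data.

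Gene start positions in hg38 were inferred from regions and distances (within 2 bp), and symbols were matched to protein-coding names of a RefSeq table. Nearest protein-coding starts, intervals and the 80% lean were defined after the files were seen. Named are the 5 regions with the largest change in each direction (called, at least 1 CPM, populations not overlapping, 1 per closest gene) for N against aRG, N against bIP and bIP against aRG. Further named are the 6 largest sums each way (at least 5 regions), the 8 genes with most regions, the 5 regions highest per kb and list members with most regions. The members and lists were chosen with earlier results of these data known. Other scalings, filters, thresholds and DESeq2 1.42.0 were tried. Some intervals and sums that meet these rules are not reported here, and region sequences were not used.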

Additional observations from a re-analysis of the deposited data

How the results depend on the processing

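Counts of called gene desert regions stayed within 1.5 times the reported ones under DESeq2 size factors, gene-start factors, loess offsets, both filters and DESeq2, and bRG against aRG stayed at 0. Leaving out 1 library at a time gave 2614 to 2950 calls for N against aRG, 2539 to 2920 for N against bRG, 1483 to 2059 for N against bIP, 1384 to 1983 for bIP against aRG, 1222 to 1818 for bIP against bRG and 0 for bRG against aRG. For sums per closest gene the ranges were 455 to 520, 455 to 514, 291 to 391, 286 to 409, 251 to 384 and 0. In each such fit the lone library is assumed to vary like the others. A limit of 100 kb gave 14105, 14069, 10218, 9274 and 8579 calls for the first 5 comparisons in that order, and a limit of 500 kb gave 74, 74, 54, 42 and 33, since the limit sets how many regions are counted. The share of counts was, over 100 kb, 6.01% in N, 5.22% in bIP, 5.39% in bRG and 5.32% in aRG, and over 500 kb 0.0476%, 0.0273%, 0.0179% and 0.0177%. Taken per kb it was 1.4%, 1.17%, 1.19% and 1.19%. Peaks of -log10 q at least 10, or with most of the peak inside, gave the same shares. Regions named for their change were rechecked only with gene-start factors, DESeq2, the replicate number as a block, and without 1 library at a time. Named sums were rechecked with the same settings except DESeq2. Neither was checked with loess offsets, DESeq2 size factors or other filters. All 330 alternatives for named regions kept the direction and the side of the threshold, and so did 306 of those for named sums, while 12 lost the call and 2 gained one. For the 8 genes with the most regions, the N against aRG call of AC068688.1 was lost in 6 alternatives, that of AC079052.1 in 4 and that of AC073873.1 in 2, each among the fits without 1 library except AC079052.1 with gene-start factors.

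Libraries of the same number deviated together (r = 0.112 to 0.444 over gene desert regions), but there are only 2 numbers and the labels do not say what they mark. With the replicate number as a block 3062, 3061, 2331, 2095, 1965 and 0 regions were called in the 6 comparisons. At an unadjusted p under 0.05 the block gave 167 between bRG and aRG. Low counts limit the weakest regions, and 362 could not be tested.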
